A study of Mus musculus with 6 samples.

Results

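The miR-200 family, which includes miR-141, is a group of small regulatory RNAs made from 5 hairpins at 2 places in the mouse genome. Its 6 strands described here, mmu-miR-200a-3p, mmu-miR-200b-3p, mmu-miR-200c-3p, mmu-miR-141-3p, mmu-miR-141-5p and mmu-miR-429-3p (mmu stands for mouse and is left out below), were chosen by name, and all 6 were among the 1184 miRNAs of the table (1452 features with 268 annotated as piRNA). The family is best known from epithelium, where it holds back the ZEB transcription repressors and with them the switch from epithelial to mesenchymal form. A miRNA finds its targets mainly through its seed, bases 2 to 8 from the 5′ end, so members with the same seed share most predicted targets. In blood-forming cells the family is usually scarce.

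The libraries came from GMLPs, progenitor cells sorted from mouse bone marrow and cultured for 3 days with doxycycline (DOX), a drug that turns on transgenes built to respond to it. ME cells (n = 3) had the genotype MLL-ENL, a leukaemia fusion gene. L28BME cells (n = 3) had the genotype LIN28B MLL-ENL, so they carried the fusion gene as well as LIN28B, a fetal RNA-binding protein that blocks the maturation of let-7 miRNAs. Both groups carried the fusion and received DOX, and no library of cells without the fusion was analysed here. The age of the mice, the promoters of the transgenes and the number of mice per library are not stated in the labels. The p-values therefore reflect how far these libraries lie apart, and that spread may be technical.

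Total reads ran from 4778027 to 5528960 per ME library and from 2745970 to 4332618 per L28BME library. let-7 strands took 26.2% to 27.5% of reads in ME and 3.23% to 3.32% in L28BME, the difference that the LIN28B label calls for. The blood miRNAs miR-223-3p and miR-142a-3p averaged 81003 and 55716 in ME on the deposited scale, against 56.3 for miR-200a-3p, the most abundant family strand there. In bulk RNA a lower share of cells with a miRNA and a lower level per cell cannot be told apart.

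The 5 guide strands fall into 2 seed groups, shown here with the seed in capitals (RefSeq, GRCm38.p6, 5′ to 3′). No other mature mouse miRNA in the RefSeq table used here had either seed. miR-141-5p, the opposite strand of the miR-141 hairpin, has a seed of its own.
miR-200a-3p: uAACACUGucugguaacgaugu
miR-141-3p: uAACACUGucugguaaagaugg
miR-200b-3p: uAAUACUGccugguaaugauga
miR-200c-3p: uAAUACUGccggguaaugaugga
miR-429-3p: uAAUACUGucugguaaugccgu
miR-141-5p: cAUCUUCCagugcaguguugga

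The seeds of the 2 groups differ at 1 base (U4C from miR-200b-3p to miR-200a-3p, counted from the 5′ end). Within a seed group the nearest relatives lie in different clusters. miR-200b-3p and miR-200c-3p differ at 2 of 22 compared bases (U11G and A22G), and miR-200a-3p and miR-141-3p also at 2 of 22 (C17A and U22G). Reads trimmed or misread at such bases could be split between these pairs when they were counted, which leaves the values of single members less certain.

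The first cluster spans 1846 bases of chromosome 4 in GRCm38, minus strand, in introns of Ttll10, a gene of the tubulin tyrosine ligase-like family. It holds Mir200b (chr4:156055681-156055750), Mir200a (chr4:156054896-156054985) and Mir429 (chr4:156053905-156053987), and Mir429 also overlaps an exon of the noncoding Gm13648. The second spans 477 bases of chromosome 6, minus strand, in an intron of the noncoding Gm15884, and holds Mir200c (chr6:124718322-124718390) and Mir141 (chr6:124717914-124717985). Mir200c lies 2317 bases from Ptpn6, which is on the same strand and encodes a tyrosine phosphatase of blood cells. Mir141 lies 964 bases from Phb2, a mitochondrial prohibitin gene on the opposite strand.

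Of the 5 hairpins 1 holds GGAG, the motif to which LIN28 proteins bind in let-7 precursors, in its loop, taken as the bases between both mature strands. It is Mir200c, shown with the motif in capitals because LIN28B is what the groups differ by.
Mir200c: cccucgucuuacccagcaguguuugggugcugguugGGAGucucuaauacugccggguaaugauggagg

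GGAG, searched on the transcribed strand only, was in the loops of 52 of 644 mouse hairpins with both strands in RefSeq (8.07%) and of 8 of 11 let-7 hairpins. A match is a description of the letters and not a binding site.

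The comparison of L28BME with ME asked how the family differs once LIN28B is added to the fusion gene. miR-200a-3p and miR-429-3p, both from the chromosome 4 cluster, were higher in L28BME by 1.31-fold and 1.40-fold. miR-200b-3p from the same cluster and both strands of miR-141 had small positive differences that did not pass the test. miR-200c-3p was the 1 member with a lower mean in L28BME, and it did not pass either. All 6 strands passed the filter on low values (at least 5 in at least 3 of the 6 libraries) in each group by itself. Values below are on the deposited scale, reads divided by a factor per library, and changes are in log2(value + 1), a scale that understates the change of the scarcest strands.

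In the chromosome 4 cluster miR-200a-3p was 56.8, 55.0 and 57.2 in ME libraries 001 to 003. It was 73.4, 75.1 and 72.8 in L28BME libraries 004 to 006. Every L28BME library lay above every ME library, and the spread within each group was narrow. The mean went from 56.3 ± 1.18 to 73.7 ± 1.19 (SD, n = 3 each), which is 0.38 in log2 units with an SE of 0.099 (limma adjusted p = 0.00493). The counts behind these values were 233 to 388 reads per library, for which counting error alone gives a coefficient of variation of 6.39% in ME and 5.78% in L28BME. The observed 2.10% and 1.61% were below that, so a repeat at this depth could spread more widely.

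miR-429-3p, with the same seed as miR-200b-3p, was 18.5, 20.3 and 15.9 in ME. It was 24.6, 24.4 and 27.8 in L28BME, again without overlap between the groups. The mean went from 18.2 ± 2.22 to 25.6 ± 1.92 (SD, n = 3 each), or 0.47 in log2 units with an SE of 0.14 (limma adjusted p = 0.00971). This call rested in part on L28BME library 006, the shallowest, without which the change was 0.41 and the limma adjusted p = 0.0583.

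miR-200b-3p, the third guide of the cluster, was 15.3, 16.8 and 15.2 in ME and 17.8, 17.3 and 16.9 in L28BME. The groups did not overlap, but the gap of 0.0899 between the highest ME and the lowest L28BME value is worth less than 1 read in ME library 002. The log2 change was 0.13, with a 95% interval from -0.16 to 0.41 (limma adjusted p = 0.423).

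In the chromosome 6 cluster miR-200c-3p was 44.7, 52.5 and 61.4 in ME and 51.2, 39.3 and 47.2 in L28BME. The groups overlapped, and replicates differed by more than counting error, with a coefficient of variation of 15.8% in ME where counting alone gives 6.64%. ME averaged 52.9 ± 8.35 and L28BME 45.9 ± 6.06 (SD, n = 3 each). The log2 change was -0.20, with a 95% interval from -0.49 to 0.095 (limma adjusted p = 0.229). Without ME library 001 it was -0.31, without ME library 003 -0.086 and without L28BME library 005 -0.092, none of them called. With plain library-size scaling the value was 0.29.

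miR-141-3p, cut from the neighbouring hairpin, was 33.2, 43.9 and 36.3 in ME and 45.4, 49.2 and 42.8 in L28BME. ME library 002 reached above the lowest L28BME library, and the others were apart. ME averaged 37.8 ± 5.54 and L28BME 45.8 ± 3.25 (SD, n = 3 each), with a log2 change of 0.28 (95% interval 0.0079 to 0.55, limma adjusted p = 0.0732). Without ME library 002 it passed the test (0.39, limma adjusted p = 0.0259).

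miR-141-5p was the scarcest of the 6, with 10.2, 9.05 and 5.93 in ME and 9.45, 10.7 and 10.6 in L28BME. ME library 003 was low and the other 5 libraries were alike. Its log2 change was 0.29, with a 95% interval from -0.13 to 0.70 (limma adjusted p = 0.222). Without ME library 003 the change was 0.082.

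**Figure D1:**
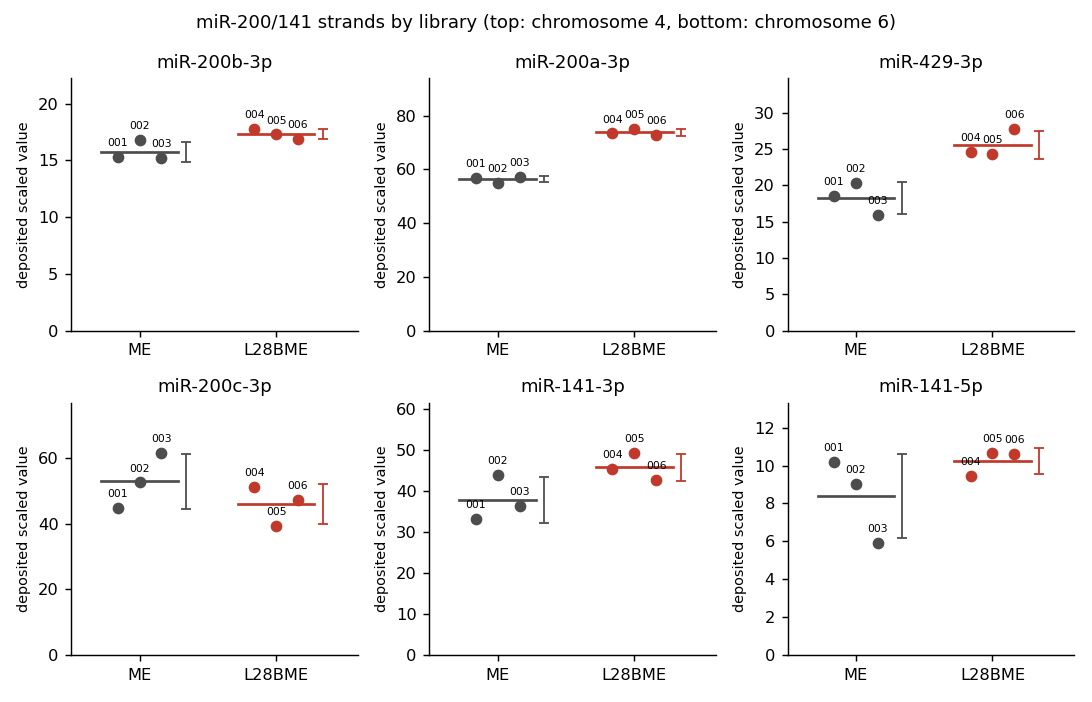
Deposited scaled value (vertical axis, from 0, a separate range in each panel) of each family strand in the 3 ME and 3 L28BME libraries, with library numbers beside the points, group means as lines and SD as bars. miR-200a-3p and miR-429-3p are apart between the groups, miR-200b-3p barely so, and the chromosome 6 strands overlap.

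As a group, 2 of 6 members were called higher and 0 lower by limma at an adjusted p under 0.05. Among all 387 tested miRNAs 24.0% were called higher and 32.0% lower, so 2 of 6 is close to the background and is not a result about the family. Values did not overlap upward between the groups for 3 of 6 members and for 27.9% of all tested miRNAs. The median log2 change of the 6 members was 0.28, and that of all tested miRNAs -0.014.

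**Figure D2:**
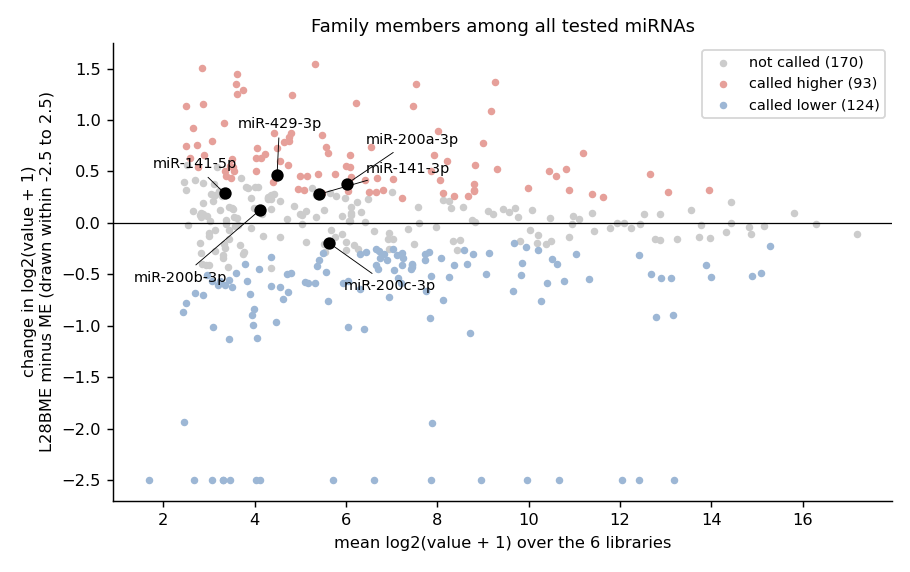
Change in log2(value + 1) from ME to L28BME (vertical axis) against the mean over the 6 libraries (horizontal axis) for 387 tested miRNAs, with the 6 members in black, 93 miRNAs called higher in red and 124 called lower in blue. The members lie at low to middle abundance and within the main cloud, and the points drawn at the bottom edge are larger falls.

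The size of these changes depended on how the libraries were scaled. The loss of let-7 reads leaves more of each L28BME library to other miRNAs, and scaling by plain library size moved the median over all tested miRNAs from -0.014 to 0.49 in log2 units. On that scale 5 of 6 members were called higher, where 63.1% of 404 tested miRNAs were, and the exception was miR-200c-3p (limma adjusted p = 0.0839). miR-200a-3p went from 47.4 ± 2.75 to 87.6 ± 2.45 CPM (counts scaled by library total alone) and miR-429-3p from 15.3 ± 1.31 to 30.4 ± 1.87 (SD, n = 3 each). Their log2 changes of 0.87 and 0.95 stood above the median shift, and the 0.29 of miR-200c-3p stood below it. The 6 strands together went from 160 ± 11.1 to 260 ± 9.52 CPM (SD, n = 3 each). Neither scaling gives amounts per cell.

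**Figure D3:**
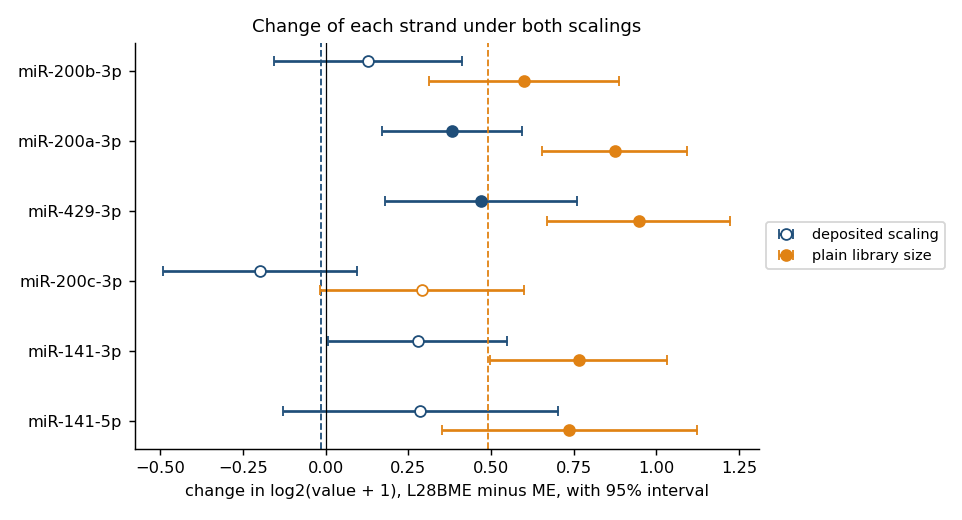
Change in log2(value + 1), L28BME minus ME (horizontal axis), of each strand with its 95% interval under the deposited scaling (blue) and plain library size (orange); filled points passed limma's test at an adjusted p under 0.05 and dashed lines mark the median of all tested miRNAs. All 6 strands move right by about the same step, and miR-200c-3p stays left of the orange median line while the other strands lie to its right.

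Ratios between members within a library are free of the scaling. miR-200c-3p to miR-200a-3p, a ratio between the clusters, was 0.788, 0.956 and 1.07 in ME and 0.698, 0.524 and 0.648 in L28BME. The groups did not overlap, and the mean log2 ratio fell by 0.59, from -0.10 ± 0.23 to -0.69 ± 0.22 (SD, n = 3 each). The two-sided exact permutation p was 0.1. With 3 libraries in each group no lower value is possible, so no ratio could pass 0.05.

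The ratio of miR-200c-3p to miR-141-3p, cut from neighbouring hairpins, was 1.35, 1.20 and 1.69 in ME and 1.13, 0.798 and 1.10 in L28BME. Here too the groups did not overlap, with a difference of -0.49 in the log2 ratio (exact permutation p = 0.1, two-sided). The difference between these neighbours was close in size to that between the clusters, but both ratios hold the same miR-200c-3p counts. Within the chromosome 4 cluster miR-200a-3p to miR-200b-3p was 3.71, 3.28 and 3.77 in ME and 4.13, 4.34 and 4.31 in L28BME (difference 0.25 in the log2 ratio, exact permutation p = 0.1, two-sided). The 4 ratios were picked with some of the members' changes known from earlier results, and over all 4 the Benjamini-Hochberg adjusted p of these 3 was 0.133. They share members (miR-200c-3p, miR-200a-3p and miR-141-3p) and are not independent of each other.

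For the strands of the miR-141 hairpin the group means were close, but ME libraries varied widely. miR-141-3p to miR-141-5p was 3.25, 4.85 and 6.12 in ME and 4.80, 4.62 and 4.03 in L28BME, with the L28BME values inside the ME range (difference -0.037 in the log2 ratio, exact permutation p = 0.8, two-sided). The 5p strand took 18.2% of the hairpin's reads in ME (95% exact binomial interval 15.2% to 21.5%, counting error only) and 18.1% in L28BME (15.3% to 21.1%).

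**Figure D4:**
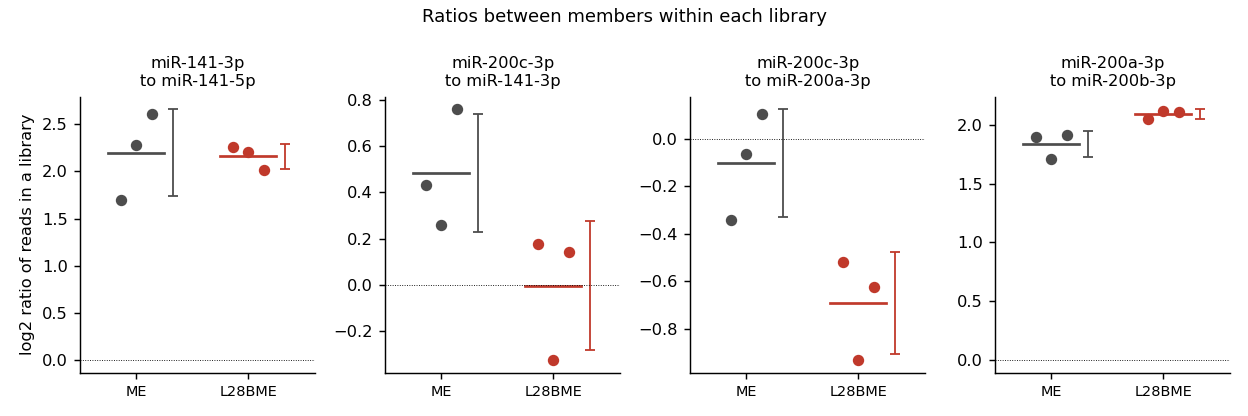
Log2 ratio of the reads of 2 members in each library (vertical axis, a separate range in each panel), with group means as lines and SD as bars, for 3 ME and 3 L28BME libraries. The ratios of miR-200c-3p to miR-141-3p and to miR-200a-3p lie lower in L28BME without overlap, and the strands of miR-141 overlap.

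Opposite strands of the other hairpins were rare. Over the 3 ME libraries miR-200c-5p had 26 reads, miR-200a-5p 10 and miR-200b-5p 3, and over the 3 L28BME libraries they had 20, 11 and 9. They took 1.16% to 3.91% of their hairpin's reads and stayed under the filter. miR-429-5p was not analysed here.

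By mean value the order in ME was miR-200a-3p, miR-200c-3p, miR-141-3p, miR-429-3p, miR-200b-3p and miR-141-5p, at 56.3, 52.9, 37.8, 18.2, 15.8 and 8.39 on the deposited scale. Whether 1 read stands for 1 molecule is not known, so this is an order of reads and not of amounts. The ranges of miR-200a-3p and miR-200c-3p overlapped, as did those of miR-429-3p and miR-200b-3p. In L28BME miR-200c-3p (45.9) and miR-141-3p (45.8) were level, and miR-200a-3p (73.7) was above both in every library. miR-200a-3p ranked 201 of 1184 miRNAs by mean value in ME and 176 in L28BME.

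From ME to L28BME the chromosome 4 guides summed to 90.3 ± 1.92 and 117 ± 0.870, and the chromosome 6 guides to 90.7 ± 11.1 and 91.7 ± 4.30 (SD, n = 3 each). By seed, AACACUG strands went from 94.1 ± 4.50 to 120 ± 4.43 and AAUACUG strands from 86.9 ± 7.34 to 88.8 ± 6.83 (SD, n = 3 each). The level sums of chromosome 6 and AAUACUG depended on the scaling. With plain library size the mean sum of the chromosome 6 guides went from 76.5 to 109 CPM (ratio 1.43). That of the chromosome 4 guides went from 76.0 to 139 (ratio 1.82). By seed, AAUACUG strands went from 73.3 to 106 CPM and AACACUG strands from 79.2 to 142 (means, n = 3 each). The sums on both scales are given as a description and were not tested. Both splits share miR-200a-3p on the higher side and miR-200c-3p on the other, so cluster and seed cannot be told apart in the sums. The members that part the splits, miR-429-3p, miR-200b-3p and miR-141-3p, had overlapping 95% intervals of 0.18 to 0.76, -0.16 to 0.41 and 0.0079 to 0.55.

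Other miRNAs known from epithelium gave another count. Of 10 on a list without the miR-200 family 7 were tested, with 5 lower and 0 higher in L28BME and a median log2 change of -0.34, where 32.0% of all tested miRNAs were lower and 24.0% higher. With plain library-size scaling 0 were lower, 2 were higher, where 63.1% of all tested miRNAs were, and the median was 0.15. miR-182-5p, an abundant member of the miR-183 cluster of sensory and epithelial cells, fell from 366, 381 and 350 in ME to 257, 234 and 268 in L28BME (log2 change -0.53, limma adjusted p = 0.000240). Scaled by plain library size it had -0.033. miR-183-5p and miR-96-5p, also among the 5 called lower, come from the same cluster, so this count is not of independent miRNAs. miR-192-5p, a miRNA of gut and kidney epithelium, averaged 535 in ME and had a log2 change of 0.12 (limma adjusted p = 0.257). Scaled by plain library size it had 0.62 (limma adjusted p = 4.46e-06). miR-205-5p and miR-375-3p were not analysed here.

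The summed levels of marker lists, none of them tested, are given beside the family. On the deposited scale the summed epithelial list ran from 1765 to 1878 in ME and from 1583 to 1641 in L28BME. That direction depended on the scaling. With plain library size the 7 tested members of this list had a median log2 change of 0.15, and miR-192-5p averaged 450 CPM in ME and 689 in L28BME. The 5 blood markers ran from 151232 to 176528 and from 161691 to 178170, with overlap. Of these 5, limma called 0 higher and 1 lower at an adjusted p under 0.05, where 24.0% and 32.0% of all tested miRNAs were. With plain library-size scaling 4 of the 5 were called higher and 0 lower, where 63.1% of all tested miRNAs were higher. The 4 erythroid markers summed to 4.41 to 7.12 in ME and 9.68 to 10.8 in L28BME. All 4 fell under the filter, with 0 to 24 reads each per library, so this difference lies near the floor. The 4 of 5 stromal and endothelial markers that were listed summed to 188 to 208 and 353 to 361, nearly all miR-199a-3p. It was the only tested marker of that list and was called higher (log2 change 0.89, limma adjusted p = 1.09e-06). None of these listed markers was at 0 in every library, and their part in the changes of the family was not tested.

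The authors' deposited table lists an FDR p of 0.0128 for miR-200a-3p and 0.0241 for miR-429-3p, and log2 fold changes of 0.39 and 0.47. For miR-141-3p, miR-200c-3p, miR-141-5p and miR-200b-3p the authors' deposited table gives FDR p-values of 0.175, 0.408, 0.566 and 0.699. There 6.61% of the 1452 features were higher at an FDR p under 0.05 and 8.33% lower, over all features without a filter.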

How the data were processed

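The authors deposited 1 table of scaled signal values per library, headed CPM per the file headers, together with their own log2 fold changes, fold changes with a sign (a score) and p-values for L28BME against ME. The kit was QIAseq miRNA, per the labels' protocols, and the build GRCm38, per the submitters' processing notes. Nothing on the aligner, the counter or the handling of molecular identifiers is given in the sources used here. The deposited signal columns have unequal sums and are not plain CPM. Within each library 100% of values divided by the smallest gave whole numbers (tolerance 0.001), so read counts were recovered from the deposited values, and the divisors equal TMM-scaled totals. Column names give group and library number only, and libraries were not paired. Replicate libraries differed by more than sampling noise.

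The 387 miRNAs that reached 5 in 3 or more libraries were tested with limma's trend method on log2(value + 1), two-sided, with Benjamini-Hochberg adjustment over all of them. piRNA features were left out. edgeR's quasi-likelihood test on recovered reads called 90 higher and 120 lower, DESeq2 83 and 106, and limma 93 and 124. The code was tested on simulated data. Members, lists and tests were chosen with earlier results of these data known. Named miRNAs are the 6 members, their opposite strands, the 3 tested miRNAs nearest in profile to each member, and at most 2 abundant members of each marker list. Others, among them hairpins with a GGAG loop, complete a count and were named after their values were seen. Software: limma 3.58.1, DESeq2 1.42.0 and edgeR 4.0.16 in R 4.3.3, and scipy 1.17.1.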

Additional observations from a re-analysis of the deposited data

How the results depend on the processing

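miR-200a-3p kept its call in all 19 alternatives (log2 change 0.36 to 0.87) and miR-429-3p in 18 of 19. With 1 library left out the latter ran from 0.38 to 0.55, and it was not called without L28BME library 006 (0.41, limma adjusted p = 0.0583). Plain library-size scaling gave 255 miRNAs higher and 33 lower (88.5% of calls higher, where the deposited scaling gave 42.9%). Scaled by the total without let-7 the share was 58.0% and the median log2 change over all tested miRNAs 0.088. With plain library-size scaling miR-200b-3p (0.60), miR-141-3p (0.77) and miR-141-5p (0.74) passed and miR-200c-3p turned to 0.29; that scaling counts the let-7 loss into every other miRNA. miR-141-3p, near the threshold, also passed with the total without let-7 (0.37), with edgeR using TMM factors from the tested miRNAs only (0.31, adjusted p = 0.0495, chosen after seeing the data) and without ME library 002, with a range of 0.19 to 0.39 when 1 library was left out. The difference in the miR-141-3p to miR-141-5p ratio ran from -0.29 to 0.17 when 1 library was left out. It changed sign without ME library 002, ME library 003 or L28BME library 006, each left out alone, and the cause was not tested. No paired analysis was possible because the columns carry no replicate numbers. Depth limits the scarce strands: miR-141-5p has a counting error of 17.0% at 25 to 44 reads per ME library and 15.5% at 34 to 50 per L28BME library.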

Other observations

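Mir200c is 1 of several hairpins outside let-7 with GGAG in the loop. Of the tested strands outside let-7, 21 had such a hairpin, where a strand made from several hairpins was counted if any of them had the motif. Of these 21 limma (adjusted p under 0.05) called 12 lower (57.1%) and 2 higher in L28BME, with a median log2 change of -0.30. Of 233 from hairpins without the motif 63 were lower (27.0%) and 56 higher, with a median of -0.0083. Tested strands without a hairpin that has both strands in RefSeq entered neither count. The counts depended on the scaling: with plain library size 2 of the 21 were lower and 10 higher, and 12 of the 233 lower and 157 higher, with medians of 0.20 and 0.48. Strands of 1 hairpin share their source (both strands of miR-132, miR-324, miR-181d, miR-30e and miR-142a are among the 21), and the difference was not tested. The lower ones include miR-107-3p, from an intron of a pantothenate kinase gene, with a mean of 1605 in ME and 951 in L28BME (-0.75, limma adjusted p = 2.33e-06, and -0.26 with plain library size). miR-200c-3p, at -0.20, was among the 7 of the 21 that did not pass.

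Profiles over the 6 libraries were compared by the mean absolute difference of log2(value + 1) after centring each miRNA on its own mean, a description of these libraries. Nearest to miR-200a-3p were miR-345-3p (0.038), miR-1981-5p (0.052) and miR-669c-5p (0.064). Nearest to miR-429-3p were miR-101b-3p (0.029), miR-301b-5p (0.041) and miR-126a-3p (0.052). For miR-200b-3p they were miR-3064-5p, miR-142a-3p and miR-148b-3p (0.016 to 0.039), and for miR-200c-3p miR-181b-5p, miR-425-5p and miR-181a-2-3p (0.062 to 0.080). For miR-141-3p they were miR-32-5p, miR-9-5p and miR-101a-3p (0.056 to 0.088), and for miR-141-5p miR-340-3p, miR-669o-5p and miR-186-5p (0.054 to 0.078). The nearest pair within the family was miR-200b-3p and miR-141-3p (0.095), and 39 tested miRNAs were nearer to miR-200b-3p than that.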
